A study of Mus musculus with 24 samples.

Results

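The genes described here are the 34 genes of the fibroblast growth factor (FGF) pathway that the peak lists were searched for by name: all 22 mouse Fgf genes, the 4 receptor genes Fgfr1 to Fgfr4, the 6 feedback inhibitor genes Spry1, Spry2, Spry4, Spred1, Spred2 and Dusp6, and the transcription factor genes Etv4 and Etv5. They are 34 of the 21774 protein-coding genes that RefSeq annotates on the mouse chromosomes used. A peak was assigned to a gene when it overlapped the gene body or the 20 kb on either side of it, and for each gene and each list the peaks were counted and the base pairs they cover inside that window were summed ("covered bp"). Expression was not measured in these files, so every value below is the presence or the extent of a histone mark.

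FGFs bind receptor tyrosine kinases and signal through Ras and the MAP kinases ERK1 and ERK2. In the limb bud, mesenchymal Fgf10 induces and maintains the apical ectodermal ridge at the distal edge, and the ridge in turn secretes Fgf8, Fgf4, Fgf9 and Fgf17, which keep the mesenchyme growing. Ridge FGFs and Sonic hedgehog (SHH) from the posterior mesenchyme maintain each other, while sprouty, spred and dual-specificity phosphatase proteins dampen the signal and ETV4 and ETV5 transmit it to target genes.

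Histone marks were mapped by chromatin immunoprecipitation and sequencing (ChIP-seq) in 24 libraries of 14 groups, of which 14 were immunoprecipitates (2 per condition) and 10 were inputs. Forelimb buds came from Swiss Webster mouse embryos of embryonic stage E10.5, with 32 to 35 somites. The Shh-/- embryos carried the null allele tm1amc on both chromosomes, and by the study's methods the controls called WT combined wild-type and heterozygous littermates. The buds of several embryos were pooled. H3K27ac, the acetylation of histone H3 lysine 27 found at active enhancers and promoters, and H3K4me2, the dimethylation of lysine 4 found at active and poised elements, were mapped in WT and Shh-/- buds. H3K27me3, the trimethylation of lysine 27 that Polycomb complexes deposit, was analysed here in Shh-/- buds only. H3K27ac was also mapped in NIH3T3 cells, a mouse embryonic fibroblast line, kept in low serum and given either 400 nM purmorphamine, an agonist of the Hedgehog receptor component Smoothened, or its solvent DMSO for 48 h. The labels also name LIF in both arms, without spelling it out.

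The 7 lists held between 20830 and 90989 peaks, and the depth of single libraries, for which the study's methods state only a lower bound, cannot be read from them. Both replicates of a condition were called together against input, so a condition has 1 list and a difference between lists has no replicate check. Nothing below is therefore tested; intervals of shares are 95% Wilson intervals, which cover counting error only. The WT list covered 1.18 times as many bp as the Shh-/- list for H3K27ac and 1.11 times as many for H3K4me2, and the purmorphamine list covered 0.938 times as many as the DMSO list. At Gli1 and Ptch1, genes that Hedgehog signaling induces, H3K27ac covered 2800 and 12850 bp in WT against 200 and 4000 bp in Shh-/- buds, and 9200 and 10300 bp with purmorphamine against 1550 and 3400 bp with DMSO. Promoters of all 6 limb mesenchyme markers (Prrx1, Prrx2, Tbx5, Msx1, Lmx1b, Twist1) carried H3K27ac in both limb lists, against 38.5% of all protein-coding genes. Promoters of all 5 fibroblast markers carried it in both NIH3T3 lists, against 51.2%. The limb buds also contain ectoderm, in which the ridge lies. Of the 8 ridge and ectoderm markers, a list that includes Fgf8, 0 had promoter H3K27ac in both limb lists. Their windows summed to 2150 bp of H3K27ac in WT and 3100 bp in Shh-/- buds. The promoter count in both limb lists was also 0 of 4 for each of the muscle, endothelial, blood and neural marker lists, and 2 of 5 for the fibroblast markers. In such mixed tissue, a mark carried by fewer cells and a weaker mark in every cell cannot be told apart.

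The promoters of the pathway divided by role (a promoter spans 2 kb before to 1 kb after a RefSeq start). H3K27ac lay at the promoter in both limb lists at 11 of the 34 genes, where 38.5% of all protein-coding genes had it. These 11 were Fgf10, Fgfr1, Fgfr2, all 6 feedback inhibitors, Etv4 and Etv5, so that the mark was found at 1 of 22 Fgf genes. H3K27me3 lay at the promoter of 17 of the 34 genes, against 13.0% of all protein-coding genes. It was present at 16 of 22 Fgf genes and at Fgfr3, and at none of the feedback inhibitors, Etv4 or Etv5. H3K4me2 was the mark most widely shared, at 27 promoters in both limb lists against 62.5% of all genes. Promoters with H3K4me2 and H3K27me3 in Shh-/- buds and without H3K27ac in either limb list numbered 15, against 9.13% of all genes. The 4 promoters without a peak of any of the 5 limb lists were those of the ligands Fgf7, Fgf1, Fgf6 and Fgf23.

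In NIH3T3 cells 15 of the 34 promoters had H3K27ac in both lists, where 51.2% of all genes did. Each of the 11 promoters acetylated in the limb was acetylated in the fibroblasts too. The other 4 belonged to ligands: Fgf7, Fgf18, Fgf2 and Fgf21. Of the 33 other pathway genes described below, 28 had promoter H3K27ac in both limb lists, and 26 of these in both NIH3T3 lists. This overlap was not counted over all genes. H3K27me3 peaks anywhere in the window were found at 22 of the 34 genes, against 36.6% of all genes, and 5 of these had no H3K27me3 at a promoter.

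**Figure D1:**
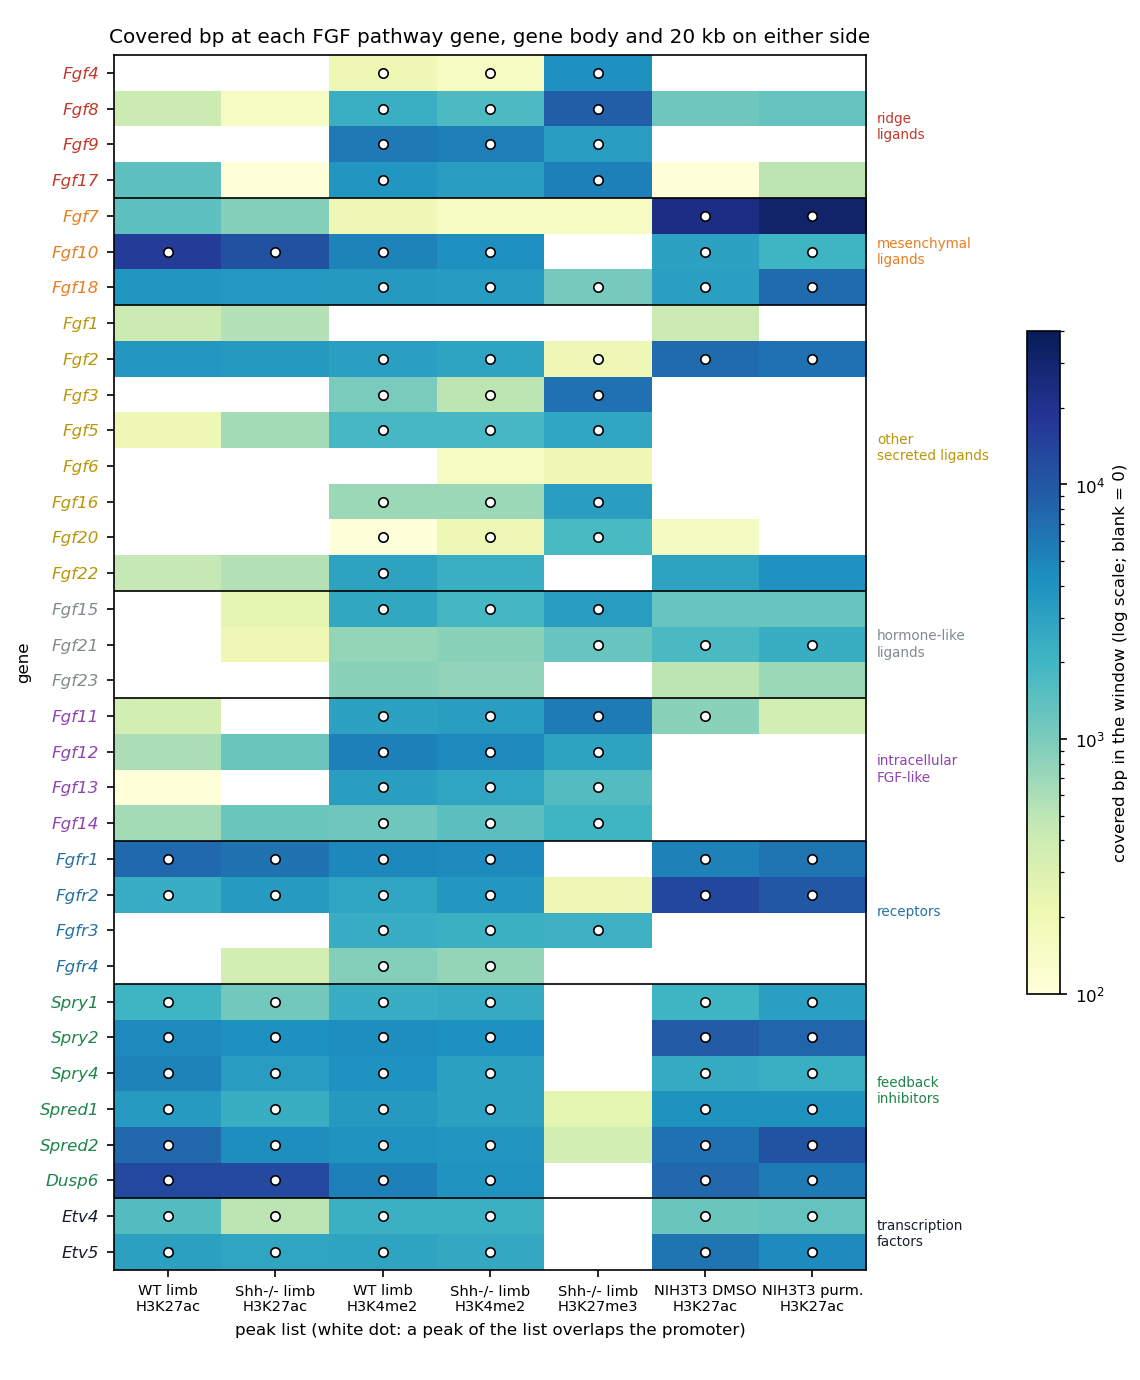
Covered bp in each gene's window (colour, log scale, blank where no peak lies) for the 34 FGF pathway genes (vertical axis, grouped by role) in the 7 peak lists (horizontal axis), with a white dot where a peak overlaps the promoter. Dots for limb H3K27ac fill the feedback inhibitor and transcription factor groups and are found at 1 Fgf gene, Fgf10, while dots for H3K27me3 mark all 4 ridge ligands.

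The ridge ligands were marked by H3K27me3 and H3K4me2 rather than H3K27ac in the dissected buds. Fgf8, the ligand of the whole ridge, is annotated at chr19:45736491-45742941 (GRCm38/mm10, minus strand). Its H3K27me3 peak at chr19:45738300-45746449 was 8150 bp wide, covered the start and most of the gene, and ranked 2 of the 20830 H3K27me3 peaks, and its ChIP signal peaked at a log2 ratio of 5.65 over input. No H3K27ac peak lay within the Fgf8 gene in any list. The H3K27ac counted in its window, 400 bp in WT, 150 bp in Shh-/- and 1150 and 1300 bp in NIH3T3 cells with DMSO and purmorphamine, came from 1 peak per list over an exon of the neighbouring gene Npm3, about 6 kb before the Fgf8 start. The covered bp were 2.67 times as high in WT as in Shh-/- but below the 500 bp required for a comparison. H3K4me2 covered 2300 bp in WT and 1700 bp in Shh-/- buds, with a 400 bp peak over the start in each list.

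Fgf4, which is restricted to the posterior ridge, lies at chr7:144861386-144865245 on the plus strand. It had no H3K27ac peak in any of the 4 acetylation lists. H3K27me3 covered 4200 bp, most of it in a 3950 bp peak over the start (chr7:144860450-144864399, rank 578), and H3K4me2 was a small peak of 200 bp in WT and 150 bp in Shh-/- buds. Fgf3 lies next to Fgf4 and their windows overlap, so those Fgf4 peaks were also counted for Fgf3. The Fgf15 window overlaps that of Fgf4 as well.

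Fgf9 (chr14:58070671-58112854, plus strand) had no H3K27ac peak either. Its H3K4me2 was the broadest of any of the 34 genes, with 5950 bp in WT and 5500 bp in Shh-/- buds, and its H3K27me3 covered 3300 bp with a 2500 bp peak over an exon at the start (rank 581). Fgf17 (chr14:70636203-70642268, minus strand) had H3K27me3 at 9 peaks and 5450 bp, the widest over its start at rank 2060. Of these, 5 peaks and 2700 bp lay beyond its 3′ end over introns and an exon of the neighbouring gene Dmtn, the best-ranked (1812) among them. H3K4me2 in the Fgf17 window covered 3800 bp in WT and 3250 bp in Shh-/- buds, with a peak at the promoter in WT only. The ridge ligands thus held 22000 bp of H3K27me3 together, a median of 107 bp per kb of window where the median of all protein-coding genes was 0. Without the peaks over Dmtn they held 19300 bp, a median of 77.7 bp per kb. Their median H3K27ac in WT was 4.31 bp per kb, against 7.14 for all genes. The 8 ridge and ectoderm markers, a list that itself includes Fgf8, had the same pattern, with H3K27me3 at 7 of 8 promoters, against 13.0% of all genes. H3K27me3 was not particular to them: it lay at 4 of 6 limb mesenchyme, 4 of 4 neural and 3 of 4 muscle marker promoters. It lay at 1 of 4 endothelial, 1 of 4 blood and 1 of 5 fibroblast marker promoters. The part of the cell mixture in these values was not tested.

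Fgf17 was the 1 ridge ligand with at least 500 bp of H3K27ac in a limb list, and so the 1 that could be compared between genotypes. H3K27ac covered 1400 bp in WT and 100 bp in Shh-/- buds, a ratio of 14.0. The WT value was a single 1400 bp peak (rank 13330 of 49679, log2 ratio 3.69), in an intron of the neighbouring gene Dmtn just beyond the 3′ end of Fgf17. The nearest Shh-/- peak was 23150 bp away. H3K4me2 peaks of both genotypes overlapped the same region. Because its nearest annotated start is not that of Fgf17, this difference belongs to the window and not to a promoter, and with the gene body alone both lists were at 0. It was the best-ranked WT-only peak of any ligand.

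The promoters of Fgf4, Fgf10 and Dusp6 are printed side by side as a ridge ligand with H3K27me3, a mesenchymal ligand with H3K27ac and a feedback inhibitor with broad H3K27ac. The genes were chosen after their values had been seen. Each sequence is the 250 bases before the start in RefSeq's promoter table (GRCm38.p6), 5′ to 3′ along the gene, with CG pairs, the pairs that make up CpG islands, in capitals.
Fgf4, chr7:144861136-144861385, plus strand: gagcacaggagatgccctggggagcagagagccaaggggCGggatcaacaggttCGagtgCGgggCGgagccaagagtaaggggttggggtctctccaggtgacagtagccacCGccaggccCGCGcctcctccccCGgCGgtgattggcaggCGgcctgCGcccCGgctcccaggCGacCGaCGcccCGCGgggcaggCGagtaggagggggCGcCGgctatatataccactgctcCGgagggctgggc
Fgf10, chr13:118714449-118714698, plus strand: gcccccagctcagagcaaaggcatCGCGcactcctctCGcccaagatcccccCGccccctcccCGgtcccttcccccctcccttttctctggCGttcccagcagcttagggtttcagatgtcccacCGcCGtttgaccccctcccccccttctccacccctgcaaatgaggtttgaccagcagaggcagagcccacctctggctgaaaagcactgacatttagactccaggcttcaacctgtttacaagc
Dusp6, chr10:99262981-99263230, plus strand: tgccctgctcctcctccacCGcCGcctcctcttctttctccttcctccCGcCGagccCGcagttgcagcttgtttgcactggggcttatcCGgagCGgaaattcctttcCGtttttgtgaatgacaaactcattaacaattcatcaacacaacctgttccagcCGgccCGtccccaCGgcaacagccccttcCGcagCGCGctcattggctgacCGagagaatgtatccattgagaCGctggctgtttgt
The Fgf4 sequence holds 21 CG pairs, Dusp6 holds 16 and Fgf10 holds 8, where the median of all 32851 promoters in the table was 6 and 92.1% held at least 1. Of those promoters 16.3% had at least as many CG pairs as Fgf4, 25.4% as many as Dusp6 and 43.0% as many as Fgf10. The table has promoters for 25 of the 34 genes, so the CG count was not compared with the marks across the set. It has none for Fgf8, Fgf17, Fgf1, Fgf16, Fgf20, Fgf15, Fgfr1, Spry4 and Etv4.

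Of the mesenchymal ligands, Fgf10 stood out for limb H3K27ac. It is annotated at chr13:118714699-118792573 on the plus strand. It had 28 H3K27ac peaks covering 16100 bp in WT, the most of the 34 genes, and 21 peaks covering 11250 bp in Shh-/- buds, a ratio of 1.43. The peaks lay around the start, in groups 16 to 34 kb into the first part of the gene, over the last exon and up to 92 kb after the start. No H3K27me3 peak lay in its window. Of the 28 WT peaks 14 had no overlapping Shh-/- peak, against 48.5% of the whole WT list. Some of the 14 lay 100 bp or less from a Shh-/- peak. The best-ranked of the 14 was 500 bp wide and 6401 bp after the start (rank 15218). Of the 21 Shh-/- peaks 4 had no overlapping WT peak, against 38.4% of the whole Shh-/- list. The best-ranked of the 4 lay in an intron at chr13:118744350-118744749 (rank 17952) and directly adjoined a WT peak. The peaks around the start and the widest intronic peak, 2150 bp in WT and 2100 bp in Shh-/- buds, were in both lists. H3K4me2 covered 5150 bp in WT and 4250 bp in Shh-/- buds. In NIH3T3 cells Fgf10 had 7 peaks and 3000 bp with DMSO and 5 peaks and 2050 bp with purmorphamine, a ratio of 0.683 for purmorphamine over DMSO.

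Fgf7 is a ligand for the epithelial form of Fgfr2. Its limb H3K27ac was 1400 bp at 3 peaks in WT and 900 bp at 1 peak in Shh-/- buds (ratio 1.56), with none at the promoter. In NIH3T3 cells it had the largest H3K27ac coverage of the 34 genes, 23150 bp at 17 peaks with DMSO and 31300 bp at 30 peaks with purmorphamine (ratio 1.35). A peak of 13650 bp with DMSO and 13550 bp with purmorphamine covered its start, and the latter ranked 55 of 87779. Of the 30 purmorphamine peaks 19 had no DMSO counterpart, against 36.5% of the whole purmorphamine list, and these 19 were 1150 bp wide or less.

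Fgf18, which later acts in growing cartilage, had nearly equal limb H3K27ac, with 3850 bp in WT and 3650 bp in Shh-/- buds (ratio 1.05) and none at the promoter. Some of it lay over the neighbouring gene Npm1. A 1050 bp H3K27me3 peak lay over its start in Shh-/- buds. In NIH3T3 cells H3K27ac covered 3150 bp at 5 peaks with DMSO and 7250 bp at 15 peaks with purmorphamine, a ratio of 2.30, and 10 of the 15 were absent with DMSO. Of these 10, 8 lay from 5 kb before to 5 kb after the start. The 3 mesenchymal ligands together had 58.0% purmorphamine-only peaks (29 of 50 peaks; interval 44.2 to 70.6%), against 36.5% of the whole purmorphamine list, and 17.2% DMSO-only peaks (5 of 29; interval 7.6 to 34.5%), against 41.1% of the whole DMSO list. Fgf7 and Fgf18 supplied all 29 purmorphamine-only peaks.

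Exact copies of GACCACCCA, a sequence bound by GLI factors, the transcription factors of Hedgehog signaling, were searched on either strand in every peak. All copies in peaks at the 34 genes are printed, with the motif in capitals. Stretches of the windows outside peaks were not part of this search. The stretches are 60 bases on either side of the motif, or 10 where it lies in a UTR.
Fgf18 intron, chr11:33143847-33143975, minus strand, in a peak found with purmorphamine only: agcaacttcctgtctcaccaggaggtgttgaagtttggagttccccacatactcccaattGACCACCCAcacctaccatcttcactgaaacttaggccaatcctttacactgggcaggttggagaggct
Fgf18 intron, chr11:33145179-33145307, plus strand, in NIH3T3 peaks of both treatments: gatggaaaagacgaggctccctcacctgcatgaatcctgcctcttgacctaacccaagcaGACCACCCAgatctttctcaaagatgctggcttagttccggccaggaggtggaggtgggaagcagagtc
Fgf10 3′ UTR, chr13:118791485-118791513, plus strand, in limb H3K27ac peaks of both genotypes: catgaccatgGACCACCCAcaaccaaaat
Fgfr1 intron, chr8:25543104-25543232, minus strand, in limb H3K27ac and H3K4me2 peaks of both genotypes: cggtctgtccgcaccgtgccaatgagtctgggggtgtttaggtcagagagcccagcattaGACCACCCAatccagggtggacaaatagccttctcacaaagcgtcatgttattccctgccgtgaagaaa
Fgfr2, after the 3′ end of the gene, chr7:130142161-130142289, minus strand, in NIH3T3 peaks of both treatments: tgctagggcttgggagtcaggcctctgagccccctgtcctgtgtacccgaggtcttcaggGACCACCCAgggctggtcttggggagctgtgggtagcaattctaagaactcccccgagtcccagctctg
The first of the Fgf18 sites lies 3485 bp after the start in a 1000 bp peak (chr11:33143550-33144549, rank 15961, log2 ratio 3.67), which was the best-ranked purmorphamine-only peak at any of the 34 genes. A DMSO peak lay 400 bp from it, so a gap of up to 500 bp would count it as shared. In the purmorphamine list 3 of 152 peaks at the genes held the motif, against 0.725% of the whole list. The counts were 2 of 136 for DMSO (whole list 0.592%), 2 of 126 for WT limb H3K27ac (0.401%) and 2 of 117 for Shh-/- limb H3K27ac (0.266%). In the methylation lists they were 1 of 144 for WT H3K4me2 (0.62%), 1 of 147 for Shh-/- H3K4me2 (0.502%) and 0 of 85 for H3K27me3 (0.528%). These counts are a description of the letters in the peaks and say nothing of binding.

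**Figure D2:**
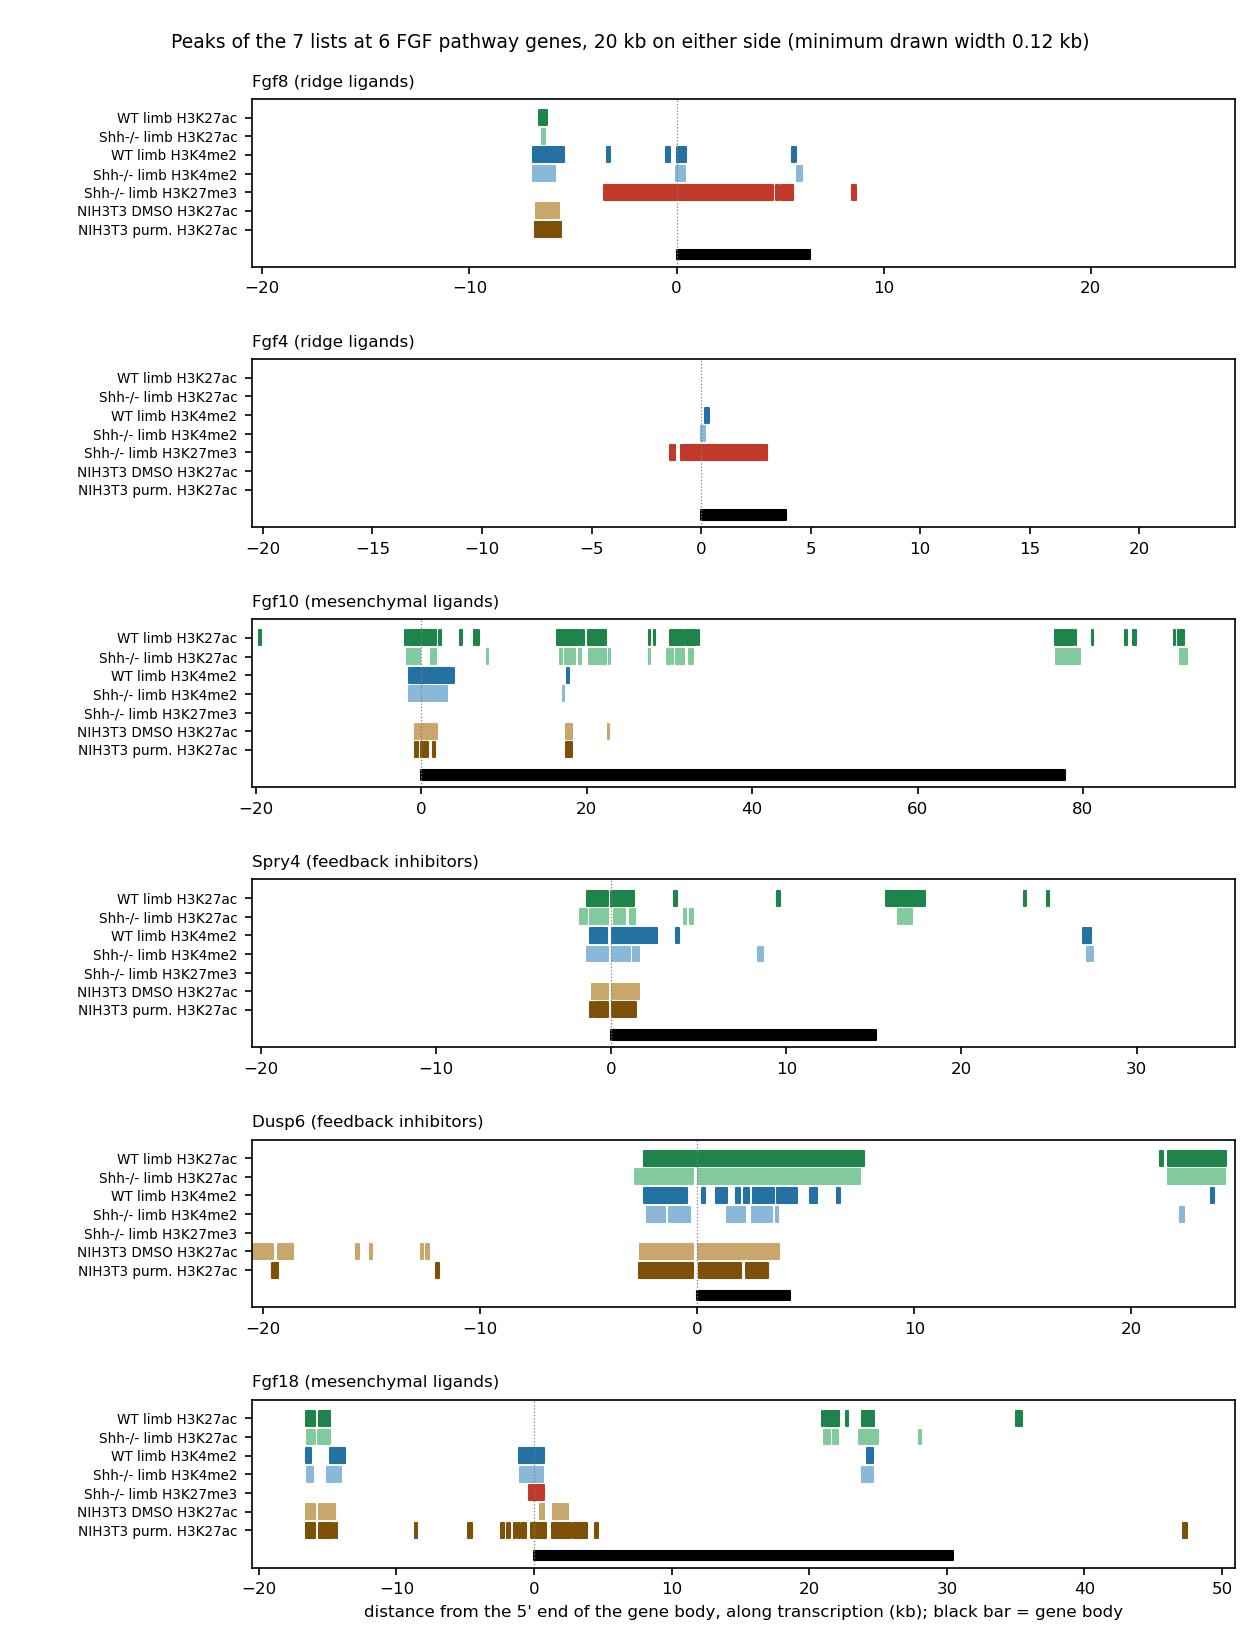
Peaks of the 7 lists (horizontal tracks) at Fgf8, Fgf4, Fgf10, Spry4, Dusp6 and Fgf18, by distance in kb from the 5′ end of the gene body along transcription, with the gene body as a black bar. H3K27me3 covers the start of Fgf8 (8150 bp) and of Fgf4 (3950 bp), H3K27ac lies at those of Fgf10, Spry4 and Dusp6, and purmorphamine peaks gather at the start of Fgf18.

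The other secreted ligands had little limb H3K27ac. None of the 8 had it at a promoter, and 5 of the 8 promoters carried H3K27me3, against 13.0% of all genes. Fgf3, active in the inner ear and tail bud, had 6699 bp of H3K27me3 with a 3350 bp peak over its start (rank 204), and its H3K4me2 covered 1000 bp in WT and 500 bp in Shh-/- buds. In each list 1 of the H3K4me2 peaks counted for Fgf3 was the peak at the start of Fgf4. Fgf16 and Fgf20 had H3K27me3 peaks of 2900 bp (rank 461) and 1650 bp (rank 984) over their starts and no limb H3K27ac. Fgf6, expressed in muscle, had 1 H3K27me3 peak of 200 bp and, in Shh-/- buds, 150 bp of H3K4me2.

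Fgf2, a ligand without a classical secretion signal, was the member of this group with the most H3K27ac. It covered 3700 bp in WT and 3550 bp in Shh-/- buds (ratio 1.04), none of it at the promoter and some of it over the neighbouring genes Nudt6 and Spata5. In NIH3T3 cells the Fgf2 promoter was acetylated and 7400 bp were covered with DMSO and 6600 bp with purmorphamine. Fgf5, a regulator of the hair cycle, had 200 bp of H3K27ac at 1 peak in WT and 650 bp at 2 peaks in Shh-/- buds, a ratio of 0.308. Both Shh-/- peaks lay in an intron 8 to 9 kb after the start. The WT peak overlapped the larger of them, and H3K4me2 at Fgf5 covered 1850 bp in each genotype. Fgf22 had 450 bp of H3K27ac in WT and 550 bp in Shh-/- buds, all of it over the neighbouring gene Rnf126. Fgf1 had 400 and 550 bp, all of it in introns of Arhgap26 and without H3K4me2 or H3K27me3.

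The hormone-like ligands, which act on distant organs, had no H3K27ac peak in WT buds. Fgf15, the counterpart of human FGF19, and Fgf21, a metabolic regulator, each had 1 peak in Shh-/- buds, of 250 and 200 bp, over an exon of another gene. Both had H3K27me3 at the promoter, with 3300 and 1250 bp covered in their windows. The 4 peaks of the Fgf21 window lay over the neighbouring genes Fut1 and Rasip1, and none of them had the Fgf21 start as its nearest. The Fgf21 promoter was acetylated in NIH3T3 cells, with 1750 bp at 1 peak with DMSO and 2350 bp at 6 peaks with purmorphamine. Fgf23, which controls phosphate, had 850 and 800 bp of H3K4me2 in WT and Shh-/- buds and no H3K27me3.

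The 4 intracellular FGF-like genes, whose proteins bind sodium channels and are not secreted, all had H3K4me2 and H3K27me3 at a promoter and no limb H3K27ac at one. At Fgf13 the promoter H3K27me3 rested on peaks of 100 to 150 bp with an FDR of 0.108 to 0.219. Fgf12 and Fgf13 have 4 annotated starts each, and so more promoter windows. Fgf11 had a 5000 bp H3K27me3 peak over its start and the neighbouring gene Tmem102 (rank 499). In NIH3T3 cells its window held 850 bp of H3K27ac with DMSO and 350 bp with purmorphamine. Most of the difference lay in 3 DMSO-only peaks of 150 bp each, while the remaining peak lay over the neighbouring gene Chrnb1 in both lists. Fgf12 had 600 bp of H3K27ac at 2 peaks in WT and 1200 bp at 7 peaks in Shh-/- buds, a ratio of 0.500. None of the Fgf12 peaks overlapped between genotypes, where 48.5% of the whole WT list and 38.4% of the whole Shh-/- list were unshared. However, Shh-/- peaks of 100 and 300 bp lay only 150 and 50 bp from a WT peak, while the other Shh-/- peaks lay 223650 bp or more from one. The widest Fgf12 peak was 450 bp, and the window is 635 kb long. Fgf14, with a window of 743 kb, had 650 and 1200 bp (ratio 0.542). Fgf13 had 1 peak of 100 bp in WT and none in Shh-/- buds. The highest H3K27ac coverage per kb in this group was 7.47 bp in WT, at Fgf11 with its window of 46.9 kb, and 1.89 bp in Shh-/- buds, where the medians of all genes were 7.14 and 4.74 bp.

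The receptors split into an acetylated and a not acetylated pair. Fgfr1, the receptor of limb mesenchyme (chr8:25518759-25575718, plus strand), had 10 H3K27ac peaks and 7550 bp in WT and 8 peaks and 6550 bp in Shh-/- buds, a ratio of 1.15. The start and an intronic region 23 to 27 kb after it were acetylated in both genotypes. In that region WT had 4 peaks, the best of them at rank 972, and Shh-/- buds had a 250 bp peak and a peak of 3250 bp at rank 764. The exact GLI motif printed above lies in this region, inside a peak of each genotype. H3K4me2 covered 4850 and 4550 bp, H3K27me3 was absent, and in NIH3T3 cells H3K27ac covered 5250 bp with DMSO and 6350 bp with purmorphamine.

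Fgfr2 (chr7:130162451-130266808, minus strand), whose epithelial form receives Fgf10 and Fgf7, was the 1 gene with an acetylated promoter that had more H3K27ac coverage in Shh-/- than in WT buds. It had 9 peaks and 2400 bp in WT and 12 peaks and 3450 bp in Shh-/- buds, a ratio of 0.696. The promoter was acetylated in both. Of the 12 Shh-/- peaks 8 had no WT counterpart, against 38.4% of the whole Shh-/- list. The best-ranked of the 8, at chr7:130161800-130162099 (rank 16451), lay just beyond the 3′ end of the gene, where WT had peaks on either side. H3K4me2 covered 2750 bp in WT and 3750 bp in Shh-/- buds. NIH3T3 cells had 13049 bp with DMSO and 9849 bp with purmorphamine, a ratio of 0.755.

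Fgfr3 (chr5:33721724-33737068, plus strand), the receptor of cartilage, had no H3K27ac peak in any list. Its promoter combined H3K4me2, a 2400 bp peak at rank 33 of 36585 in WT, with a 2150 bp H3K27me3 peak in Shh-/- buds. H3K4me2 at Fgfr3 covered 2200 bp in Shh-/- buds, in 3 peaks instead of 1. Fgfr4 (chr13:55152818-55168759, plus strand), which is used by muscle and liver, had H3K4me2 of 900 and 750 bp, no H3K27me3 and, in Shh-/- buds, 2 small H3K27ac peaks of 350 bp in all beyond the 3′ end.

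**Figure D3:**
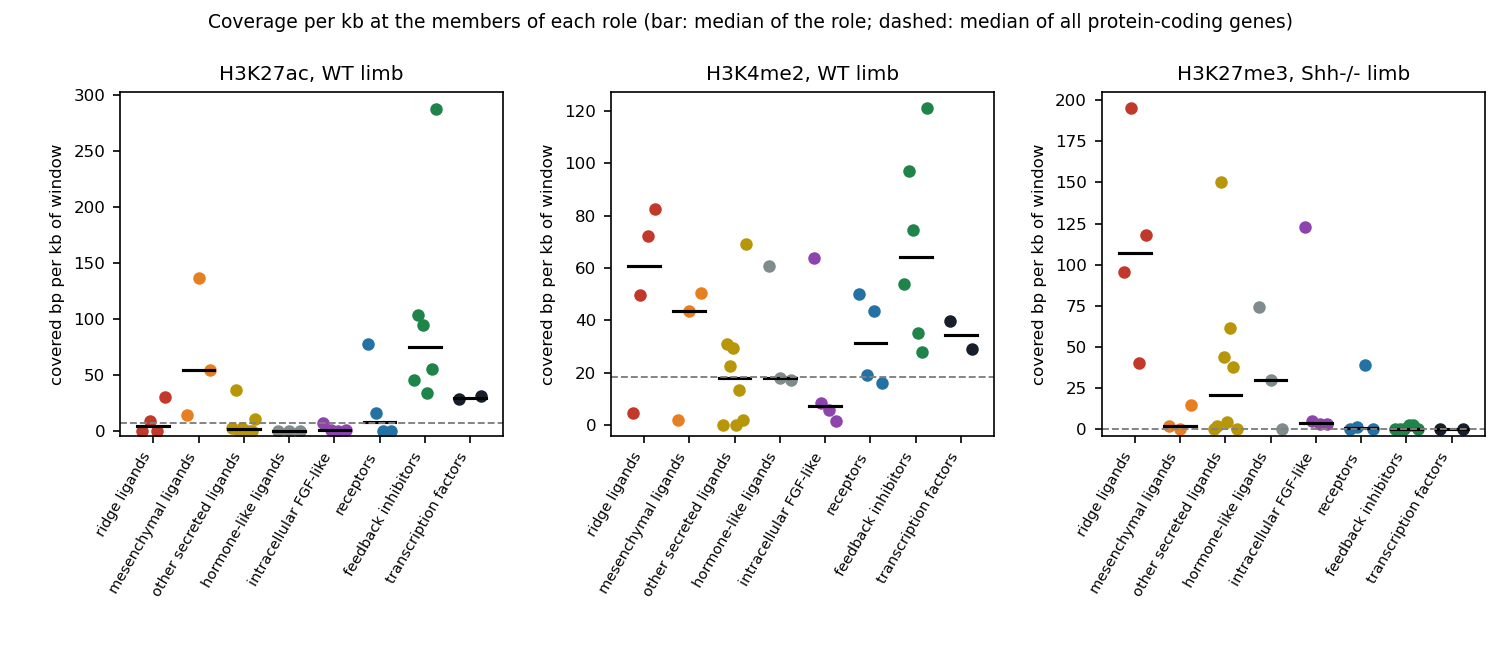
Covered bp per kb of window for WT limb H3K27ac, WT limb H3K4me2 and Shh-/- limb H3K27me3 (vertical axes) by role, with 1 point per gene, a bar at the median of the role and a dashed line at the median of all protein-coding genes. The feedback inhibitors have a median of 74.8 bp per kb for H3K27ac and 0 for H3K27me3, and the ridge ligands 4.31 and 107.

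The feedback inhibitors were alike in their promoter marks. All 6 promoters had H3K27ac and H3K4me2 in both genotypes and H3K27ac in both NIH3T3 lists, and none had H3K27me3. Dusp6, the phosphatase that inactivates ERK, had the highest H3K27ac coverage per kb, 288 bp in WT and 287 bp in Shh-/- buds. A WT peak of 10100 bp, chr10:99260800-99270899, spanned the whole gene at rank 25 of 49679. Shh-/- buds had peaks of 2500 and 7500 bp there, at ranks 268 and 316, and the covered bp of the window were 12740 and 12690, a ratio of 1.00. H3K4me2 covered 5350 bp at 11 peaks in WT and 3900 bp at 6 peaks in Shh-/- buds. With DMSO and purmorphamine H3K27ac covered 7719 and 5800 bp at Dusp6.

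The sprouty genes encode inhibitors of Ras signaling downstream of the receptor. Spry1 had 6 H3K27ac peaks and 2050 bp in WT and 4 peaks and 1100 bp in Shh-/- buds (ratio 1.86). Spry4 had 8 peaks in each list but 5200 bp in WT and 3300 bp in Shh-/- buds (ratio 1.58). At Spry4 the distal region 16 to 18 kb after the start held a peak of 1800 bp at rank 2544 in WT and peaks of 450 and 250 bp in Shh-/- buds. Spry2 differed little, with 4650 and 4200 bp (ratio 1.11), and peaks of 2300 bp over its start in both. At all 3 genes the peaks at the start were present in both genotypes. In NIH3T3 cells Spry1 had 2050 bp with DMSO and 3150 bp with purmorphamine (ratio 1.54). The NIH3T3 values were 9350 and 7950 bp at Spry2 and 2500 and 2300 bp at Spry4.

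The spred genes encode related membrane-bound inhibitors of Raf activation. Spred2 had 14 H3K27ac peaks and 7700 bp in WT and 8 peaks and 4350 bp in Shh-/- buds (ratio 1.77). A 2100 bp peak over its start was present in both. Of the 14 WT peaks 10 had no Shh-/- counterpart, against 48.5% of the whole WT list. Of these 10, 9 lay 39 kb or more after the start, the best of them at chr11:19969950-19970349 (rank 13753). Spred1 had 3 peaks in each genotype and 3450 and 2350 bp (ratio 1.47). The best-ranked WT-only peak at any of the 34 genes lay beyond the 3′ end of Spred1, at chr2:117196850-117197099, but it ranked only 13101 of 49679. In NIH3T3 cells Spred2 had 6700 bp with DMSO and 10777 bp with purmorphamine (ratio 1.61), and Spred1 4000 bp with each.

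Etv4 and Etv5, ETS factors induced by FGF signaling, had H3K27ac and H3K4me2 at their promoters in both genotypes. Etv4 (chr11:101769747-101785310, minus strand) had 1600 bp of H3K27ac at 3 peaks in WT and 500 bp at 2 peaks in Shh-/- buds, a ratio of 3.20. With 50 kb flanks the ratio was 1.55, under the 2-fold limit, and with the better-ranked 50% of each list it was 4.83. Over its start, a 1150 bp WT peak at rank 10695 corresponded to Shh-/- peaks of 200 and 300 bp, the better at rank 10526. H3K4me2 at Etv4 covered 2200 bp in each genotype, and NIH3T3 cells had 1200 bp of H3K27ac with DMSO and 1300 bp with purmorphamine. Etv5 had 3050 and 2800 bp in the limb (ratio 1.09) and 6400 and 4600 bp with DMSO and purmorphamine (ratio 0.719). The Etv5 start had its best peak at rank 776 in WT and at rank 5598 in Shh-/- buds. No H3K27me3 peak lay in either window.

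Across the set, limb H3K27ac coverage differed less than 2-fold between genotypes at most genes. Of the 34 genes 20 had at least 500 bp in 1 of the limb lists and could be compared. Coverage was at least 2-fold lower in Shh-/- buds at 2 genes, Fgf17 and Etv4, or 10.0% of those compared, where 15.1% of all genes were. It was at least 2-fold higher at 2 genes, Fgf5 and Fgf12, again 10.0%, against 2.33% of all genes. The 2 genes that were higher had at most 1200 bp in either list, and with the better-ranked 50% of each list Fgf12 had 450 bp in WT and 0 in Shh-/- buds. More bp were covered in WT at 14 of the 20 and in Shh-/- buds at 6, and the median ratio of WT to Shh-/- was 1.10, against 1.22 over all genes and 1.18 for the whole lists. At the lower limit of 1.5-fold, 6 genes were lower in Shh-/- buds, namely Fgf17, Fgf7, Spry1, Spry4, Spred2 and Etv4, where 29.9% of all genes were. These 6 of 20 are about the share of the genome. The genes nearest to the 2-fold limits were Fgf12, on the limit at a ratio of 0.500, and Fgf14 and Spry1, short of it at 0.542 and 1.86. No gene compared lay between Spry1 and Etv4, whose ratio was 3.20.

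H3K4me2 differed less. Of 29 genes compared, 1 was at least 2-fold lower in Shh-/- buds, Fgf3, where 3.22% of all genes were. None was at least 2-fold higher, against 0.622% of all genes. The median ratio was 1.09 over the set and 1.11 over all genes. Etv4, with the ratio of 3.20 for H3K27ac, had equal H3K4me2 coverage in both genotypes. Its peaks were not all shared: 1 of 5 in WT and 2 of 5 in Shh-/- buds were unshared, against 25.7 and 22.5% of the whole lists.

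In NIH3T3 cells 21 genes could be compared. H3K27ac coverage was at least 2-fold higher with purmorphamine at 2 genes, Fgf17 and Fgf18, where 4.44% of all genes were. It was at least 2-fold lower at 1 gene, Fgf11, where 6.79% were. The Fgf17 value rested on 1 peak in each list over an exon of the neighbouring gene Dmtn, of 500 bp with purmorphamine and 100 bp with DMSO, which is not the intronic region of the limb difference. With the better-ranked 50% of each list none of the 3 genes passed the 2-fold limit. At 1.5-fold 4 genes were higher with purmorphamine, adding Spry1 and Spred2, against 8.90% of all genes. The median ratio of purmorphamine to DMSO was 1.08 over the set and 0.948 over all genes. The antibodies against H3K27ac came from different suppliers for the limb and the fibroblasts.

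**Figure D4:**
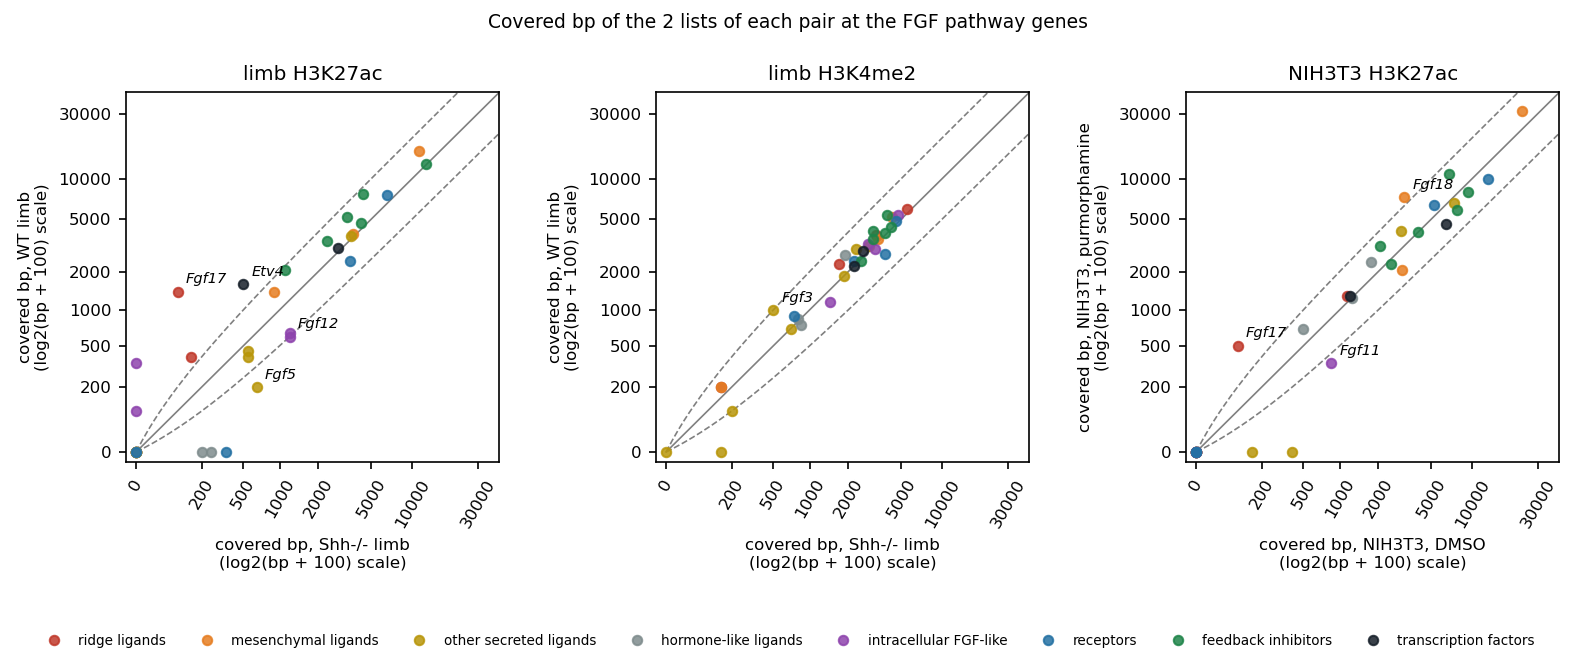
Covered bp at each of the 34 genes in the 2 lists of each pair, on log2(bp + 100) axes, with points coloured by role, equality as a solid line and 2-fold differences in covered bp as dashed lines, which bend at low values on these axes. For limb H3K27ac, Fgf17 and Etv4 lie above the upper dashed line and Fgf5 and Fgf12 on or below the lower one, while for H3K4me2 only Fgf3 reaches a dashed line among the genes with at least 500 bp.

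Peak by peak, 61 of the 126 distinct WT H3K27ac peaks at the 34 genes had no overlapping Shh-/- peak, or 48.4% (interval 39.9 to 57.1%), against 48.5% of the whole WT list. Of the 117 Shh-/- peaks, 40 had no WT counterpart, or 34.2% (26.2 to 43.2%), against 38.4% of the whole list. Among roles, the feedback inhibitors had 23 WT-only peaks of 40 (57.5%, 42.2 to 71.5%) and 8 Shh-/- only peaks of 32 (25.0%, 13.3 to 42.1%). The mesenchymal ligands had 19 of 39 (48.7%, 33.9 to 63.8%) and 5 of 28 (17.9%, 7.88 to 35.6%). The receptors had 7 of 19 (36.8%, 19.1 to 59.0%) and 11 of 22 (50.0%, 30.7 to 69.3%). The intervals of the receptors and the feedback inhibitors overlapped in both directions. They count neighbouring peaks of a gene singly: Spred2 supplied 10 of the 23 WT-only peaks at feedback inhibitors, and Fgfr2 supplied 8 of the 11 Shh-/- only peaks at receptors. For H3K4me2 the unshared shares at the 34 genes were 27.8% of 144 WT peaks and 23.1% of 147 Shh-/- peaks, against 25.7 and 22.5% of the whole lists. With purmorphamine 59 of 152 peaks (38.8%, 31.4 to 46.7%) had no DMSO counterpart, and 36 of 136 DMSO peaks (26.5%, 19.8 to 34.5%) had no purmorphamine counterpart, against 36.5 and 41.1% of the whole lists.

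**Figure D5:**
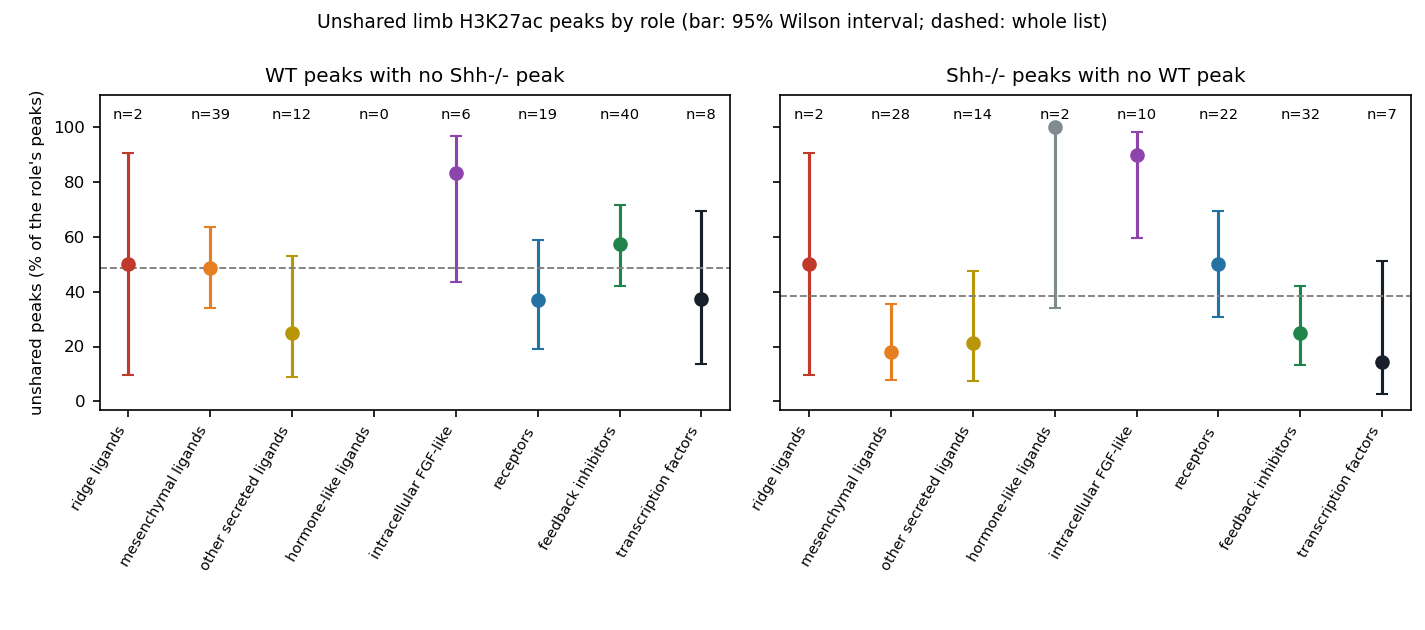
Share of limb H3K27ac peaks without a counterpart in the other genotype (vertical axis, percent of the role's peaks) by role, for WT and for Shh-/- peaks, with 95% Wilson intervals, the number of peaks above each point and the whole list as a dashed line. At the feedback inhibitors 57.5% of WT peaks and 25.0% of Shh-/- peaks are unshared, and the intervals of both include the dashed line.

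The 33 other pathway genes, from co-receptors to kinases, mostly had acetylated promoters. H3K27ac was present in both limb lists at 28 of the 33, against 38.5% of all genes. H3K27me3 was present at 2, Kl and Flrt2, against 13.0% of all genes. Of 31 genes compared for limb H3K27ac, 2 were at least 2-fold lower in Shh-/- buds, Frs3 and Nras, against 15.1% of all genes. The 1 gene that was at least 2-fold higher was Grb2, against 2.33% of all genes. None of 33 differed 2-fold in H3K4me2, where 3.22% of all genes were lower and 0.622% higher. In NIH3T3 cells 1 of 31 was at least 2-fold lower with purmorphamine, against 6.79% of all genes, and none was higher, against 4.44%. That gene was Dusp9, a phosphatase of the same family as Dusp6, with 500 bp with DMSO and 0 with purmorphamine.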

How the data were processed

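ChIP-seq peak lists of 7 conditions were analysed, with each sample grouped by its label. The authors called peaks with CisGenome on mm10 from both replicates together against input, with 1 input library per condition for limb H3K27ac and H3K4me2. The submitters' processing notes also name Bowtie2 2.2.5 and limma, without saying how they were used for these lists. Nothing in the labels says that all replicates came from separate litters or cultures. For each peak the authors deposited its position and 4 measures: a false discovery rate (a q-value), a score that orders the rank, the highest log2 ratio over input inside the peak, and the −log10 of the smallest Poisson p-value. The deposited scores were at least 3.0, and the −log10 values at least 5.0 and at most 100.0. They served for ranking and filters inside a list and were not compared as signal between lists.

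Autosomes, X and Y were kept, with deposited coordinates. All starts were multiples of 50 and may count from 0, which would shift a position by 1 bp. RefSeq gene bodies (GRCm38.p6) were used because the GENCODE vM21 body of Fgfr2 extends far beyond the gene. A pair of lists was compared at a gene if either covered at least 500 bp in its window, and a gene was counted at 2-fold or more. Sharing meant at least 1 bp of overlap between peaks of a pair of lists. No test was possible with 1 list per condition, so the share of all protein-coding genes measured the same way is given with the counts of genes past the 2-fold limit and of promoters with a mark over the whole set. A smaller list covers fewer bp at every gene, and the ratios were not scaled for this.

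The 34 genes, their roles, the 33 other pathway genes and the marker lists were chosen with earlier results of these data known. The genes described in full were those that differed 2-fold in any pair of lists, the ridge ligands, Fgf10 and the receptors. Peaks selected for positions were the 3 best-ranked unshared peaks per list of a pair, the widest H3K27me3 peaks and the peaks with an exact GLI motif. Only some of the selected peaks are printed with their positions. The sequences of the best-ranked WT-only peaks are not reported here. Some other peaks, chosen after their values were seen, are given to describe single genes. Counts per window and shared peaks were checked against bedtools 2.31.1, and the 2-fold call was tested on simulated lists. Python 3.11.15, numpy 2.4.6, pandas 2.3.3, matplotlib 3.10.9 and samtools 1.23.1 were used. Alternatives were other flanks (none, 50 kb), assignment by nearest start, the better-ranked 50% of each list, lists cut to equal size, an FDR under 0.05, a fold of 1.5, a minimum of 1000 bp, an overlap of 50% or a gap of up to 500 bp for shared peaks and a promoter of 500 bp on either side. GENCODE gene bodies and all alternatives for promoters were added after the data were seen.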

Additional observations from a re-analysis of the deposited data

How the results depend on the processing

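No paired analysis was possible because each list pools both replicates of a condition, and for the same reason no replicate could be left out. The lists do not give the depth of single libraries, and 47.2% of the H3K27me3 peaks had an FDR under 0.05. The promoter counts kept within 1.5 times their value in all alternatives run: ridge ligands with H3K27me3 stayed at 4 of 4, feedback inhibitors and transcription factors with limb H3K27ac at 8 of 8, all members with H3K27me3 ranged from 15 to 17 and with limb H3K27ac from 10 to 11. Of 90 alternative values of counts and shares, 24 moved, and the causes were not tested. A reversal was defined only for ratios at single genes, not for these counts and shares.

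The counts at 2-fold were the least stable. The 2 genes with lower limb H3K27ac in Shh-/- buds became 1 (Etv4) with gene bodies only or by nearest start, 5 with 50 kb flanks (Fgf17, Fgf6, Fgf15, Fgf23, Fgfr3) and 6 at 1.5-fold. The 2 with higher coverage became 1 (Fgf5) with an FDR under 0.05 and 1 (Fgf12) with at least 1000 bp. With the better-ranked 50% of each list they were Fgf5 and Fgf14, and Fgf12 had 450 bp in WT and 0 in Shh-/- buds, opposite to its direction in the full lists. The 1 gene with lower H3K4me2, Fgf3, became 0 with 50 kb flanks or an FDR under 0.05 and 2 (Fgf4, Fgf3) with GENCODE gene bodies. For purmorphamine, the 2 genes with higher H3K27ac became 1 with gene bodies only, 50 kb flanks, the nearest start or at least 1000 bp, 0 with the better-ranked 50% and 4 at 1.5-fold. The 1 with lower H3K27ac, Fgf11, became 0 with gene bodies only, the better-ranked 50%, the nearest start or at least 1000 bp. With 50 kb flanks it was no longer among them (ratio 0.924), and the 1 gene was Fgf1.

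The WT-only share of 48.4% became 34.7% with the better-ranked 50% of each list, 61.9% if 50% of a peak had to be overlapped and 29.4% with a gap of up to 500 bp. The Shh-/- only share of 34.2% became 21.9% with the better-ranked 50% and 18.8% with that gap. Of 45 alternative ratios at single genes, 38 stayed, 7 moved and none reversed, leaving out the cases, such as that of Fgf12, in which a list at 0 gives no ratio.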
